A study of Mus musculus with 12 samples.

Results

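The genes described here are 67 factors of ribosome biogenesis, measured by RNA-seq in mouse CD8+ T cells that were naïve, activated in plain media or activated in the presence of lactate. They were chosen by symbol alone: gene families whose names begin with Utp, Rrp, Nop, Exosc or Noc, together with a fixed set of single genes such as Bop1, Pes1, Dkc1 and Ddx21. The rule took 67 of the 13780 genes in the count table. It uses no expression value, but it was set with earlier results of these data known. All 67 passed the filter on low counts, as did 13767 of the 13780 genes, so every member was tested. The rule found no row for Exosc6, a further exosome subunit, which is therefore not used here.

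Ribosomes are built in the nucleolus, where RNA polymerase I transcribes a long precursor of the ribosomal RNAs. The UTP-A subcomplex and the rest of the small-subunit (SSU) processome assemble on this precursor as it is made, box C/D and box H/ACA particles guide its methylation and pseudouridylation, the PeBoW complex and other factors mature the large subunit, and the RNA exosome trims and degrades the spacers. Resting T cells make few ribosomes, and the production of ribosomes is known to rise when T cells are activated, grow and divide. MYC is a known activator of many genes of this programme and binds the DNA sequence CACGTG.

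Each group held 4 libraries of CD8+ T cells isolated with magnetic beads from the spleens of C57BL/6J mice aged 8 to 12 weeks. Naïve cells were frozen directly after isolation and were neither activated nor treated. Both activated groups were stimulated for 72 h with beads carrying antibodies to CD3 and CD28 and with 10 U/ml IL-2, and grew either in plain media ("media") or with sodium lactate added at 40 mM ("lactate"). No sodium chloride was added to the control, and the effects of sodium and osmolarity cannot be told apart from that of lactate. According to the donor tags, both activated conditions were sequenced for 3 donors. Library numbers in the labels form 2 blocks, here the low and the high series, of which the high one holds 1 naïve, 1 media and 2 lactate libraries.

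Total counts ran from 14726904 to 21478137 per library. Values per library are counts scaled to library size and composition by edgeR's TMM method and expressed per 1000000 counts (CPM), and numbers after a group name are those of the sample titles. Calls of higher or lower rest on edgeR's quasi-likelihood test, fitted to all 12 libraries, with p adjusted over 13767 genes and a threshold of 0.01. The summed level of 5 CD8+ T cell markers was 2365 to 5146 TPM (transcripts per 1000000, corrected for gene length) in naïve cells, 3556 to 4443 TPM in media and 2645 to 3351 TPM with lactate. Naïve libraries also held RNA of other cells: 4 of 4 B cell markers summed to 584 to 1438 TPM there against at most 27.2 TPM in activated libraries, and 4 myeloid markers to 452 to 1251 TPM against at most 0.852 TPM. The 3 red cell markers in the table summed to 273 to 9766 TPM in naïve cells and to at most 5.11 TPM in activated cells. Cd4 was at 9.39 to 23.3 TPM in naïve cells and at most 0.744 TPM in activated cells, and 2 NK cell markers summed to 5.24 to 14.2 TPM against at most 0.856 TPM. The part of these cells in the naïve comparisons below was not tested.

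Ribosome biogenesis factors took a larger share of the counts with lactate than in either other group. The 67 genes together held 0.497% ± 0.0346 (SD, n = 4) of all counts in naïve cells, 0.461% ± 0.0559 in media and 0.831% ± 0.0844 with lactate. The lactate libraries ranged from 0.757% to 0.952%, above the media libraries (0.385% to 0.504%) and the naïve libraries (0.460% to 0.542%), while the ranges of media and naïve cells overlapped. In bulk RNA of this kind, fewer cells of a type and less RNA per cell cannot be told apart.

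**Figure D1:**
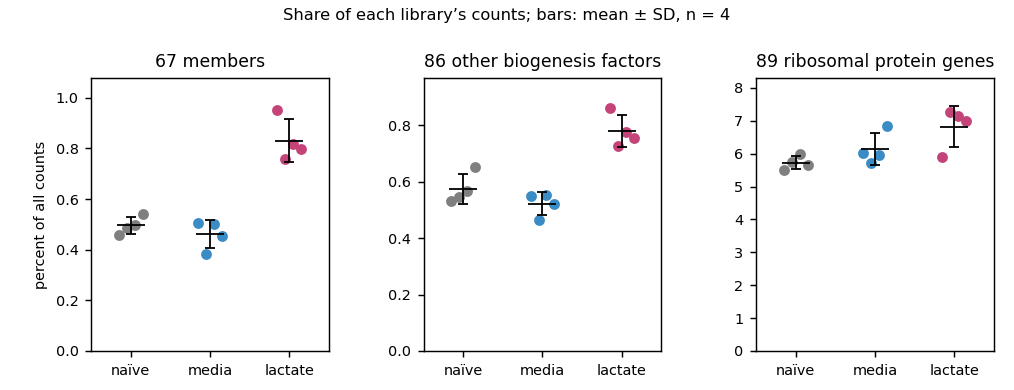
Percent of each library's counts held by the 67 ribosome biogenesis factors (left), by 86 other biogenesis factors (middle) and by 89 genes with symbols of ribosomal proteins (right), in naïve, media and lactate libraries. Points are libraries and bars show the mean ± SD of 4 libraries. The 4 lactate libraries lie between 0.757% and 0.952% on the left, above all media libraries, whereas on the right 1 lactate library at 5.90% lies within the range of the media libraries.

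Activation with lactate rather than in plain media came with higher RNA of nearly the whole set. Of the 67 members, 59 were higher with lactate (88.1%, against 13.9% of all tested genes), 1 was lower (1.49%, against 11.1%) and 7 were not called. A called increase of at least 2-fold was seen for 34 members (50.7%, against 4.21% of all genes). The median log2 fold change of the members was 1.01, with a range from -0.64 to 1.91, and that of all tested genes was -0.0016. All 4 lactate libraries lay above all 4 media libraries for 61 members (91.0%, against 23.2% of all genes). By role, the count of higher members was 6 of 6 in the UTP-A group, 20 of 24 among the other factors of the small subunit, 3 of 3 in the box C/D group, 5 of 5 in the box H/ACA group, 3 of 3 in PeBoW, 13 of 14 among the other factors of the large subunit, 3 of 3 regulators of ribosomal RNA genes and 6 of 9 exosome genes. The plot of fold changes by role shows these values for every member. Without media 2, the library with the lowest values of these genes, 55 members were higher, and without lactate 1, the library with the highest, 57 were.

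**Figure D2:**
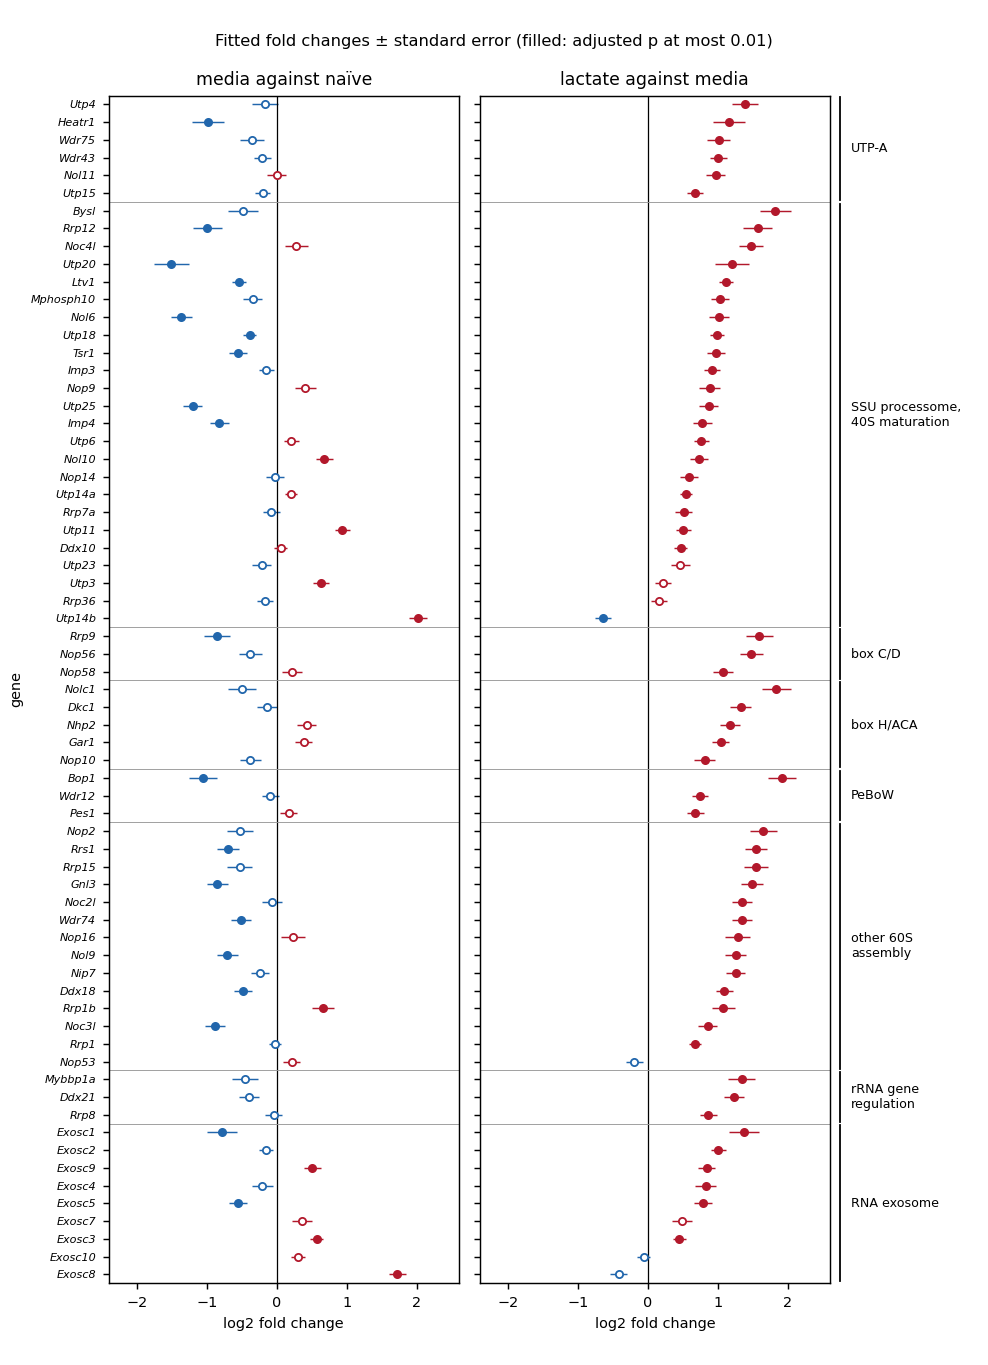
Fitted log2 fold change of each of the 67 members, grouped by role, for media against naïve cells (left) and for lactate against media (right); bars are standard errors, and filled points have an adjusted p of at most 0.01. On the right 59 filled points lie above 0 and 1, Utp14b, lies below, and on the left filled points lie on both sides, 8 above and 19 below.

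Since these genes moved together, their promoters were searched for CACGTG, which is its own reverse complement. RefSeq windows (GRCm38.p6, from 250 bases before to 50 bases after the annotated start) were matched for 57 of the 67 members. The motif stood in the windows of 15 of them (26.3%), of 12 of 71 other biogenesis factors (16.9%) and of 1162 of 9898 tested genes (11.7%). Over all genes in the promoter table, tested or not, the share was 8.09%. The median log2 fold change with lactate was 0.98 for the 15 members with the motif, of which 14 were higher, and 1.04 for the 42 members with a window without it, of which 37 were higher. No window was matched for Bop1, Exosc4, Exosc9, Nol6, Nop53, Rrp12, Rrs1, Utp6, Utp11 and Utp23. The motif of NRF1, another factor that binds promoters of widely expressed genes, stood in the windows of 12 of the 57 members (21.1%) and of 11.6% of the tested genes. Windows with the motif in capitals are shown for 4 members. They were named as subunits of the defining complexes or as the 2 called members with the largest lactate change in their role. Further members named below also hold the motif. A window is also shown for Utp14b, which was added after its values were seen because it moved the other way:
Nop2 (chr6:125131633-125131932, plus strand): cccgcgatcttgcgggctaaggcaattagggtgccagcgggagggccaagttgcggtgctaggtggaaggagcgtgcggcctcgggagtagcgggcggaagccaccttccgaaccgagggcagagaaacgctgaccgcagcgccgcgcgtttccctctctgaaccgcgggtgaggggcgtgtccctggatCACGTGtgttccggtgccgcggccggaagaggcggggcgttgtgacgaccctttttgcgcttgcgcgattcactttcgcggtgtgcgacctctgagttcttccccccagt
Utp4 (chr8:106893390-106893689, plus strand): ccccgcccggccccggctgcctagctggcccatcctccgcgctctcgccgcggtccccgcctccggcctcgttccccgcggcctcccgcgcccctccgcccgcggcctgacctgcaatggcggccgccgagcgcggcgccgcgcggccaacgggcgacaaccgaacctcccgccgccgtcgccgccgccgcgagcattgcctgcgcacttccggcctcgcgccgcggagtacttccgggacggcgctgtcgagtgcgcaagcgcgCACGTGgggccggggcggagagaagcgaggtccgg
Mybbp1a (chr11:72441077-72441376, plus strand): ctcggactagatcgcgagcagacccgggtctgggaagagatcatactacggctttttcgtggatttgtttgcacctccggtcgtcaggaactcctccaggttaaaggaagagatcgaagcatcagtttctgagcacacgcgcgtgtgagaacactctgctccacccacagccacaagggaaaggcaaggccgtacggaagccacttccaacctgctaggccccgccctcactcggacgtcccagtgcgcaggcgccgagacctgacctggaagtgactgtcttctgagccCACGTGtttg
Pes1 (chr11:3963725-3964024, plus strand): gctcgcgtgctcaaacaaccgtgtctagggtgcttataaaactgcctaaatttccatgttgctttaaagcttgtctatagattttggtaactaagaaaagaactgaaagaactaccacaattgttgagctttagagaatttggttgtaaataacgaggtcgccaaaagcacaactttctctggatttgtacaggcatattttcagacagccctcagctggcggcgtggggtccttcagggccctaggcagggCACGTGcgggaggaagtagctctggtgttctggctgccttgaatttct
Utp14b (chr1:78658190-78658489, plus strand): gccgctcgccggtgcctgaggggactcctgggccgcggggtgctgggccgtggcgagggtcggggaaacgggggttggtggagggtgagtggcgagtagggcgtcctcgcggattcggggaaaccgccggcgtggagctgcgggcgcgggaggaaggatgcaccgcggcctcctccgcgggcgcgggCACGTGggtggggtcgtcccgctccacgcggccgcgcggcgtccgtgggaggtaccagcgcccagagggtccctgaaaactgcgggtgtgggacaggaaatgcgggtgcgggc
Counted with the annotated start as 0 and negative numbers before it, the motif begins at -60 in Nop2, at 15 in Utp4, at 40 in Mybbp1a, at 2 in Pes1 and at -63 in Utp14b.

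The UTP-A genes encode proteins that bind the nascent precursor and are required for its transcription. All 6 were higher with lactate, by log2 fold changes from 0.68 to 1.38 (median 1.01). Utp4, a WD40-repeat protein (chr8:106893636-106923088, plus strand, GRCm38), stood at 52.0, 50.2, 57.4 and 78.0 CPM in naïve libraries 1 to 4, at 57.9, 40.9, 61.1 and 52.1 CPM in media and at 176, 104, 139 and 133 CPM with lactate. Every lactate library exceeded every media and every naïve library, and the fitted log2 fold change against media was 1.38 ± 0.19 (SE, adjusted p = 0.000187). Heatr1, the large HEAT-repeat protein of the group, stood at 109, 117, 118 and 156 CPM in naïve libraries 1 to 4, at 77.2, 50.3, 77.1 and 47.8 CPM in media and at 203, 102, 137 and 123 CPM with lactate. Its lactate range spanned the naïve one and lay above the media one, with a log2 fold change against media of 1.16 ± 0.23 (SE, adjusted p = 0.00168). With the donor as a block in the model the adjusted p of Heatr1 was 0.0153, above the threshold. Wdr75, Wdr43, Nol11 and Utp15 were higher by log2 fold changes of 1.01, 1.01, 0.97 and 0.68.

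Of the 24 other factors of the small subunit, 20 were higher, with a median log2 fold change over all 24 of 0.82. Bysl, which acts in late processing of the small-subunit precursor (chr17:47599331-47611492, minus strand), stood at 29.1, 30.5, 29.4 and 22.4 CPM in naïve libraries 1 to 4, at 25.7, 12.2, 25.1 and 16.8 CPM in media and at 89.0, 62.9, 65.7 and 64.8 CPM with lactate. The lactate libraries lay far above the rest, and the difference from media was the largest of this group at 1.82 ± 0.22 (SE, adjusted p = 0.000116) on the log2 scale. Rrp12, which takes part in export of pre-ribosomal particles from the nucleus, stood at 44.4, 44.5, 49.1 and 58.5 CPM in naïve libraries 1 to 4, at 31.2, 16.8, 30.7 and 20.1 CPM in media and at 92.4, 61.3, 74.5 and 64.8 CPM with lactate. Its media libraries were below all naïve libraries and its lactate libraries above them, with 1.57 ± 0.21 (SE, adjusted p = 0.000168) for lactate against media on the log2 scale. Noc4l rose by 1.47, Ltv1 by 1.12, Mphosph10 by 1.03, Utp18 by 0.99 and Tsr1 by 0.98 on this scale. Imp3 and Imp4, which with Mphosph10 bind the U3 particle, rose by 0.91 and 0.78. The remaining called increases in this group that are not described below were those of Nop9 (0.88), Utp6 (0.77), Nop14 (0.58), Rrp7a (0.52) and Ddx10 (0.47). The call of Nop14 was lost without media 2, media 4, lactate 1 or lactate 3 (adjusted p from 0.0105 to 0.014 in edgeR's quasi-likelihood test), and that of Rrp7a without media 2, media 3, lactate 1, lactate 3 or lactate 4 (0.0156 to 0.0193). A gene on the opposite strand overlaps 32.3% of the exon bases of Tsr1, 29.9% of those of Nop9 and 12.5% of those of Rrp7a.

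Utp20, Nol6 and Utp25, members of the SSU processome, shared another pattern: high in naïve cells, low in media and intermediate or high with lactate. Utp20 stood at 74.2, 78.6, 88.9 and 99.7 CPM in naïve libraries 1 to 4, at 39.1, 21.6, 37.7 and 21.9 CPM in media and at 99.8, 49.4, 67.5 and 59.5 CPM with lactate. The groups of media and lactate libraries did not overlap, with lactate 2 at 49.4 CPM nearest to media 1 at 39.1 CPM, and the log2 fold change of 1.20 ± 0.24 (SE, adjusted p = 0.00225) was not called with the donor as a block (adjusted p = 0.014). Nol6 stood at 93.8, 94.0, 101 and 109.5 CPM in naïve libraries 1 to 4, at 44.0, 29.4, 38.1 and 43.4 CPM in media and at 92.5, 60.7, 81.0 and 79.1 CPM with lactate, and all of its lactate libraries were above media and below naïve cells. Its log2 fold changes were 1.02 ± 0.15 (SE, adjusted p = 0.00028) for lactate against media and -1.36 ± 0.15 (SE, adjusted p = 4.57e-06) for media against naïve cells. For Utp25, the mean was 46.0 ± 2.47 CPM (SD, n = 4) in naïve cells, 20.0 ± 3.17 CPM in media and 36.6 ± 5.64 CPM with lactate.

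The box C/D proteins Nop56 and Nop58 form the core of the particles that methylate ribosomal RNA, and Rrp9 is the protein specific to the U3 particle, which directs early cleavage of the precursor. Nop56 (chr2:130274430-130279313, plus strand) stood at 134, 131, 151 and 163 CPM in naïve libraries 1 to 4, at 121, 76.4, 120.4 and 128 CPM in media and at 360.2, 253, 318 and 312 CPM with lactate. Lactate libraries were above all others, with a log2 fold change against media of 1.48 ± 0.16 (SE, adjusted p = 7.4e-05). Of the exon bases of Nop56, 8.00% are shared with small nucleolar RNA genes of the same locus. Nop58 stood at 90.9, 114, 110.2 and 116 CPM in naïve libraries 1 to 4, at 126, 101, 144 and 131 CPM in media and at 300.0, 201, 278 and 272 CPM with lactate, which gives 1.07 ± 0.14 (SE, adjusted p = 0.000184) against media. Rrp9 had means of 46.2 ± 4.06, 25.5 ± 7.44 and 77.1 ± 8.26 CPM (SD, n = 4) in naïve cells, media and lactate, and a log2 fold change of 1.59 ± 0.19 (SE, adjusted p = 0.000112) with lactate against media.

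The box H/ACA proteins gave a like result: Dkc1 (dyskerin, the pseudouridine synthase), Nhp2, Gar1 and Nop10 form the particle, and Nolc1 (Nopp140) is its nucleolar chaperone. Nolc1 (chr19:46075863-46085530, plus strand) stood at 94.9, 104, 113 and 111 CPM in naïve libraries 1 to 4, at 97.6, 48.8, 84.6 and 68.2 CPM in media and at 349, 204, 259 and 254 CPM with lactate. The lowest lactate library, at 204 CPM, lay far above the highest media library, at 97.6 CPM, and the log2 fold change was 1.83 ± 0.20 (SE, adjusted p = 8.01e-05). Dkc1 stood at 78.1, 82.2, 80.0 and 68.3 CPM in naïve libraries 1 to 4, at 83.5, 54.3, 79.3 and 62.8 CPM in media and at 215, 148, 172 and 165 CPM with lactate. Its naïve and media libraries overlapped below the lactate libraries, with 1.32 ± 0.15 (SE, adjusted p = 8.5e-05) for lactate against media. Nhp2 and Gar1 had log2 fold changes of 1.17 ± 0.14 (SE, adjusted p = 0.000104) and 1.04 ± 0.12 (SE, adjusted p = 0.000103). Nop10, the smallest protein of the particle, had 0.81 ± 0.15 (SE, adjusted p = 0.00119) and an adjusted p of 0.0146 with the donor as a block. Between media and naïve cells the log2 fold changes of Nhp2 and Gar1 were 0.43 ± 0.14 (SE, adjusted p = 0.0152) and 0.39 ± 0.12 (SE, adjusted p = 0.0137) in edgeR's quasi-likelihood test, above the threshold, and Nhp2 was called by edgeR's likelihood ratio test.

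In the PeBoW complex, which is needed for processing of the large-subunit RNAs, Bop1 differed more than its partners. Bop1 (chr15:76452989-76477277, minus strand) stood at 78.8, 82.5, 82.8 and 88.9 CPM in naïve libraries 1 to 4, at 52.2, 25.1, 46.3 and 36.4 CPM in media and at 189, 119.6, 151 and 143 CPM with lactate. The groups were fully separate, with media lowest and lactate highest, and its log2 fold change of 1.91 ± 0.20 (SE, adjusted p = 6.36e-05) against media was the largest of all 67 members. Pes1 stood at 82.9, 84.5, 80.3 and 112 CPM in naïve libraries 1 to 4, at 111, 84.4, 106 and 104 CPM in media and at 172, 145, 165 and 166 CPM with lactate. Lactate exceeded the other groups for Pes1 as well, by 0.68 ± 0.12 (SE, adjusted p = 0.00111) against media, and with the donor as a block its adjusted p was 0.0269. Wdr12 had means of 44.8 ± 3.98, 42.1 ± 5.62 and 70.4 ± 7.63 CPM (SD, n = 4) in naïve cells, media and lactate and a log2 fold change of 0.74 ± 0.12 (SE, adjusted p = 0.000509) against media. The difference between Bop1 and its partners was not tested.

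Of 14 other factors of the large subunit, 13 were higher with lactate, and the median log2 fold change over the 14 was 1.27. Nop2, a methyltransferase of the large ribosomal RNA, stood at 56.0, 62.6, 64.5 and 66.2 CPM in naïve libraries 1 to 4, at 55.2, 30.6, 50.4 and 36.6 CPM in media and at 178, 113, 127 and 124 CPM with lactate. Lactate libraries lay above the rest, with a log2 fold change against media of 1.65 ± 0.19 (SE, adjusted p = 9.06e-05). Gnl3 (nucleostemin, a GTP-binding protein of proliferating cells) stood at 90.3, 92.0, 92.5 and 96.4 CPM in naïve libraries 1 to 4, at 56.4, 36.6, 60.3 and 53.2 CPM in media and at 184, 136, 134 and 126 CPM with lactate. Its order was media, naïve and then lactate with no overlap, and it had 1.49 ± 0.16 (SE, adjusted p = 6.36e-05) for lactate against media. Rrs1, which helps the small ribosomal RNA made by RNA polymerase III into the large subunit, had means of 38.6 ± 2.58, 23.7 ± 4.34 and 69.5 ± 12.7 CPM (SD, n = 4) in naïve cells, media and lactate, and 1.55 ± 0.16 (SE, adjusted p = 5.78e-05) for lactate against media. Rrp15, Noc2l, Wdr74, Nop16, Nol9, Nip7 and Ddx18 rose by 1.55, 1.35, 1.34, 1.28, 1.25, 1.25 and 1.09 on the log2 scale, and Noc3l and Rrp1 by 0.85 and 0.67. Of the exon bases of Noc2l, 20.9% overlap a gene on the opposite strand.

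The 3 regulators of ribosomal RNA genes were also higher with lactate. Ddx21, an RNA helicase that promotes transcription by RNA polymerase I, stood at 285, 292, 312 and 359 CPM in naïve libraries 1 to 4, at 259, 186, 277 and 226 CPM in media and at 650.4, 458, 562 and 554 CPM with lactate. Mybbp1a, a MYB-binding protein known to restrain ribosomal RNA transcription, stood at 244, 249.9, 268 and 279.9 CPM in naïve libraries 1 to 4, at 226, 143, 221 and 170.2 CPM in media and at 637, 321, 495 and 470.4 CPM with lactate. For both genes every lactate library was above every media library, with log2 fold changes of 1.23 ± 0.14 (SE, adjusted p = 9.06e-05) for Ddx21 and 1.34 ± 0.19 (SE, adjusted p = 0.000277) for Mybbp1a. Rrp8, which takes part in silencing of ribosomal RNA genes, rose by 0.86 on the log2 scale. The factor with a promoting role and those with restraining roles moved in the same direction.

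**Figure D3:**
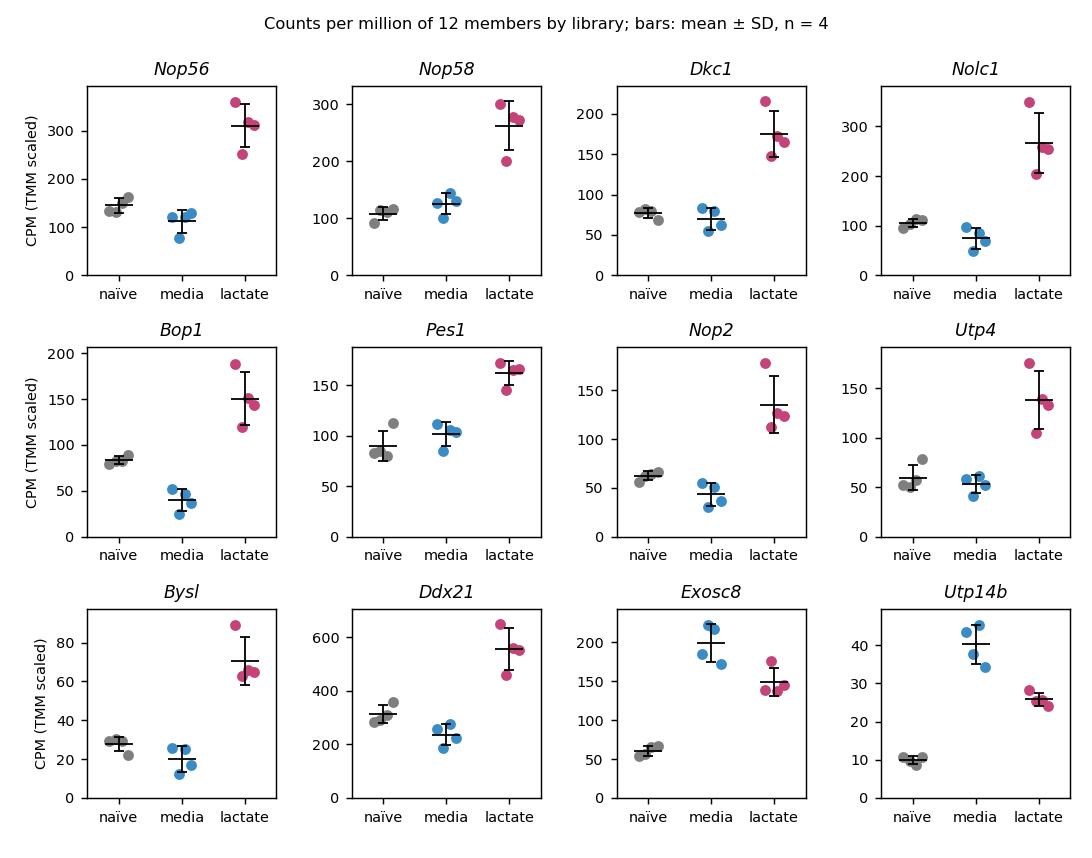
TMM-scaled CPM of 12 members in each library, by group; every point is a library, and bars show the mean ± SD of 4 libraries, on linear axes that start at 0. In 10 panels the lactate libraries lie above the media libraries, and in the panels of Exosc8 and Utp14b the mean is highest in media.

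The genes of the RNA exosome, which degrades and trims RNA from its 3′ end, were mixed. Of 9 genes, 6 were higher with lactate and 3 were not called, and the median log2 fold change was 0.78. Exosc1, a cap subunit, stood at 20.1, 22.3, 23.1 and 30.7 CPM in naïve libraries 1 to 4, at 17.1, 10.0, 17.9 and 10.9 CPM in media and at 45.2, 37.6, 31.2 and 31.6 CPM with lactate. Naïve and lactate libraries both lay above media, and the difference between lactate and media was 1.38 ± 0.21 (SE, adjusted p = 0.000427) on the log2 scale. Exosc2, another cap subunit, had 1.01 ± 0.10 (SE, adjusted p = 5.97e-05). A gene on the opposite strand overlaps 12.4% of the exon bases of Exosc2 and 19.8% of those of Exosc4. Exosc9, Exosc4, Exosc5 and Exosc3 rose by 0.84, 0.83, 0.78 and 0.45, and all 4 lost their call with the donor as a block (adjusted p of 0.012, 0.0348, 0.011 and 0.0525). The call of Exosc3 was also lost without media 2, lactate 3 or lactate 4, with adjusted p from 0.0105 to 0.0129 in edgeR's quasi-likelihood test. Exosc10, a catalytic nuclease of the nuclear exosome, had means of 119.9 ± 5.44 CPM in media and 115 ± 13.2 CPM with lactate (SD, n = 4), and its log2 fold change was -0.06 ± 0.09 (SE, adjusted p = 0.673).

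Exosc8, a subunit of the exosome ring, had its highest values in media. It stood at 53.6, 55.9, 65.6 and 66.4 CPM in naïve libraries 1 to 4, at 185, 222, 217 and 172 CPM in media and at 139, 176, 137 and 145 CPM with lactate. Activated libraries were far above naïve ones, and lactate libraries were mostly below media ones, although lactate 2 at 176 CPM exceeded media 4 at 172 CPM. The log2 fold change was 1.72 ± 0.12 (SE, adjusted p = 1.25e-07) for media against naïve cells and -0.42 ± 0.12 (SE, adjusted p = 0.0147) for lactate against media, the latter above the threshold in edgeR's quasi-likelihood test. It was called lower by edgeR's likelihood ratio test, by DESeq2 and with DESeq2's size factors. With single libraries left out it was called without naïve 4 or without lactate 2.

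Utp14b, the only member called lower with lactate, is a retrocopy of Utp14a, a member of the SSU processome on chromosome X. It stood at 10.8, 9.55, 8.51 and 10.8 CPM in naïve libraries 1 to 4, at 43.5, 37.7, 45.4 and 34.4 CPM in media and at 28.2, 25.5, 25.5 and 24.0 CPM with lactate. The 3 groups did not overlap: naïve cells were lowest, lactate was intermediate and media was highest. The log2 fold changes were 2.02 ± 0.13 (SE, adjusted p = 4.28e-08) for media against naïve cells and -0.64 ± 0.12 (SE, adjusted p = 0.00138) for lactate against media, the latter with an adjusted p of 0.015 when the donor was a block. Utp14a stood at 72.5 ± 2.01, 83.6 ± 6.83 and 122 ± 8.96 CPM (SD, n = 4) in naïve cells, media and lactate, and was higher with lactate than in media by 0.55 ± 0.08 (SE, adjusted p = 0.0004). The counting used uniquely mapped reads, and how many reads the copies share is not known, so the values of this pair are uncertain, and 11.5% of the exon bases of Utp14a overlap a gene on the opposite strand. Utp14b (chr1:78658038-78671512, plus strand) lies within the span of Acsl3, a gene of fatty acid activation on the same strand, with which it shares 3.18% of its exon bases. Acsl3 stood at 12.1, 7.93, 7.71 and 23.4 CPM in naïve cells, at 51.6, 55.8, 60.3 and 51.4 CPM in media and at 29.3, 43.3, 35.9 and 31.2 CPM with lactate. Its order of groups was thus that of Utp14b, with a log2 fold change of -0.65 ± 0.29 (SE, adjusted p = 0.0904) for lactate against media. The part of Acsl3 transcripts in the counts of Utp14b was not tested.

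Of the 7 members not called between lactate and media, Exosc8 and Exosc10 have been described above. Exosc7 had a log2 fold change of 0.49 ± 0.15 (SE, adjusted p = 0.0182) and Utp23 of 0.46 ± 0.14 (SE, adjusted p = 0.0198), both with every lactate library above every media library. Utp3 had 0.22 ± 0.11 (SE, adjusted p = 0.145) and Rrp36 had 0.16 ± 0.11 (SE, adjusted p = 0.276), both with overlapping groups. Nop53, which recruits the exosome to large-subunit precursors, stood at 405, 437, 452 and 522 CPM in naïve libraries 1 to 4, at 479.7, 538, 489 and 599.7 CPM in media and at 365, 476, 509.7 and 489 CPM with lactate, and its value of -0.20 ± 0.12 (SE, adjusted p = 0.231) came with overlapping groups.

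Activation in plain media for 72 h, compared with naïve cells, gave calls in both directions. Of the 67 members, 8 were higher in media (11.9%, against 28.5% of all tested genes), 19 were lower (28.4%, against 29.0%) and 40 were not called. The fitted log2 fold change was below 0 for 45 members and above 0 for 22. Its median was -0.20 against -0.029 for all genes. The B cell, myeloid and red cell RNA given above was in the naïve libraries of this comparison, and its part was not tested. CPM are relative to the counts of each library, and the amount of RNA per cell was not measured. The share of members called lower was near that of all tested genes, and their counts by role are a description only. Lower were 1 of 6 in the UTP-A group, 8 of 24 among the other small-subunit factors and 1 of 3 in the box C/D group. So were 1 of 3 in PeBoW, 6 of 14 among the other large-subunit factors and 2 of 9 exosome genes. The largest decreases were those of Utp20 at -1.50 ± 0.25 (SE, adjusted p = 0.000142), Nol6 at -1.36 ± 0.15 (SE, adjusted p = 4.57e-06), Utp25 at -1.20 ± 0.14 (SE, adjusted p = 6.2e-06), Bop1 at -1.06 ± 0.20 (SE, adjusted p = 0.000397) and Rrp12 at -0.99 ± 0.20 (SE, adjusted p = 0.000853) on the log2 scale. No media library reached the lowest naïve library for these 5 genes, which were picked by their decrease in this same comparison.

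The 8 members higher in media than in naïve cells were Utp14b, Exosc8, Utp11, Nol10, Rrp1b, Utp3, Exosc3 and Exosc9. Utp11, a component of the SSU processome, stood at 31.8, 34.3, 33.7 and 41.5 CPM in naïve libraries 1 to 4, at 73.6, 61.5, 74.5 and 61.1 CPM in media and at 98.6, 99.4, 98.7 and 87.7 CPM with lactate. It rose in steps from naïve cells to media and on to lactate without overlap, by 0.94 ± 0.11 (SE, adjusted p = 6.94e-06) and 0.51 ± 0.11 (SE, adjusted p = 0.00261), although the latter had an adjusted p of 0.033 with the donor as a block and of 0.0105 to 0.0114 without media 2, media 4 or lactate 3. Nol10 had means of 27.8 ± 3.50, 44.6 ± 5.60 and 74.1 ± 8.79 CPM (SD, n = 4) in naïve cells, media and lactate, and an adjusted p of 0.0189 between the activated groups with the donor as a block. Rrp1b, a nucleolar protein related to Rrp1, stood at 44.8, 48.1, 54.9 and 38.5 CPM in naïve libraries 1 to 4, at 82.4, 57.8, 89.1 and 65.0 CPM in media and at 191, 132, 153 and 145 CPM with lactate. Its media and naïve libraries did not overlap, and it was higher in media by 0.66 ± 0.16 (SE, adjusted p = 0.00289) and higher again with lactate by 1.08 ± 0.16 (SE, adjusted p = 0.000351). Its call in media was lost without media 1, media 3, naïve 1 or naïve 2, with adjusted p from 0.0105 to 0.0138 in edgeR's quasi-likelihood test. Utp3 had 0.64 ± 0.11 (SE, adjusted p = 0.000294), Exosc3 0.57 ± 0.10 (SE, adjusted p = 0.000226) and Exosc9 0.51 ± 0.12 (SE, adjusted p = 0.00189) for media against naïve cells. The call of Exosc9 was lost without media 4, naïve 2 or naïve 3 (adjusted p from 0.0149 to 0.0203 in edgeR's quasi-likelihood test). Of the exon bases of Exosc9, 10.8% overlap Ccna2, a cyclin gene on the opposite strand, and whether reads were counted by strand is not given in the sources used here.

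Compared with naïve cells, cells activated with lactate had higher RNA of most members. The count was 53 higher (79.1%, against 33.0% of all tested genes) and 0 lower (against 32.0%) in edgeR's quasi-likelihood test, with a median log2 fold change of 0.82. At an unadjusted p under 0.05 the test gave 2 lower members, and DESeq2 called 2 lower, Nol6 and Utp25. An increase of at least 2-fold was called for 22 members (32.8%, against 21.3% of all genes), led by Noc4l at 1.75 ± 0.17 (SE, adjusted p = 1.1e-06) and Rrp1b at 1.74 ± 0.17 (SE, adjusted p = 1.06e-06). This comparison shares its lactate libraries with the comparison to media and its naïve libraries with the comparison of media to naïve cells. Without naïve 2, the setting with the fewest calls, 44 members were higher. Naïve 4, the naïve library of the high series, had the highest value of its group for 44 of the 67 members, against 37.2% of all genes, and naïve 1 had the lowest for 41, against 18.3%.

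Levels per length, in TPM, spread widely among the members. With lactate, Nop53 had the highest level at 376 ± 41.6 TPM (SD, n = 4), followed by Noc2l at 348 ± 43.7 TPM, Nhp2 at 341 ± 32.8 TPM and Ddx21 at 339 ± 54.9 TPM, and these neighbours lay within each other's spread. The place of Noc2l rests on its length, which is 4160 bases in the table and 2867 bases as the union of its exons in GENCODE M21, and with the latter its level would be 506 ± 63.4 TPM (SD, n = 4), above Nop53. Utp14b had the lowest level in naïve cells, 4.41 ± 0.598 TPM, and with lactate, 10.6 ± 1.14 TPM. In media the lowest level was that of Utp20 at 10.3 ± 3.50 TPM, next to Utp25 at 10.6 ± 1.93 TPM, and Nop53 was again highest at 474 ± 34.5 TPM. Subunits of the same particle were not at equal RNA levels: with lactate, Nhp2 stood above Nop10 (176 ± 20.9 TPM), Gar1 (149 ± 13.7 TPM) and Dkc1 (135 ± 26.2 TPM), and Pes1 (169 ± 14.1 TPM) and Bop1 (161 ± 35.0 TPM) above Wdr12 (18.6 ± 2.73 TPM).

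The libraries of a group also differed from each other in a shared way, seen in the map of all members by library. Media 2 was the lowest media library for 58 of the 67 members, against 28.9% of all genes, and lactate 2 was the lowest lactate library for 47, against 32.9% of all genes. Lactate 1 was the highest lactate library for 53 members, against 31.4% of all genes. The median coefficient of variation of the members was 10.7% in naïve cells, 15.7% in media and 11.9% with lactate, beside 19.8%, 13.8% and 13.1% for all tested genes.

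**Figure D4:**
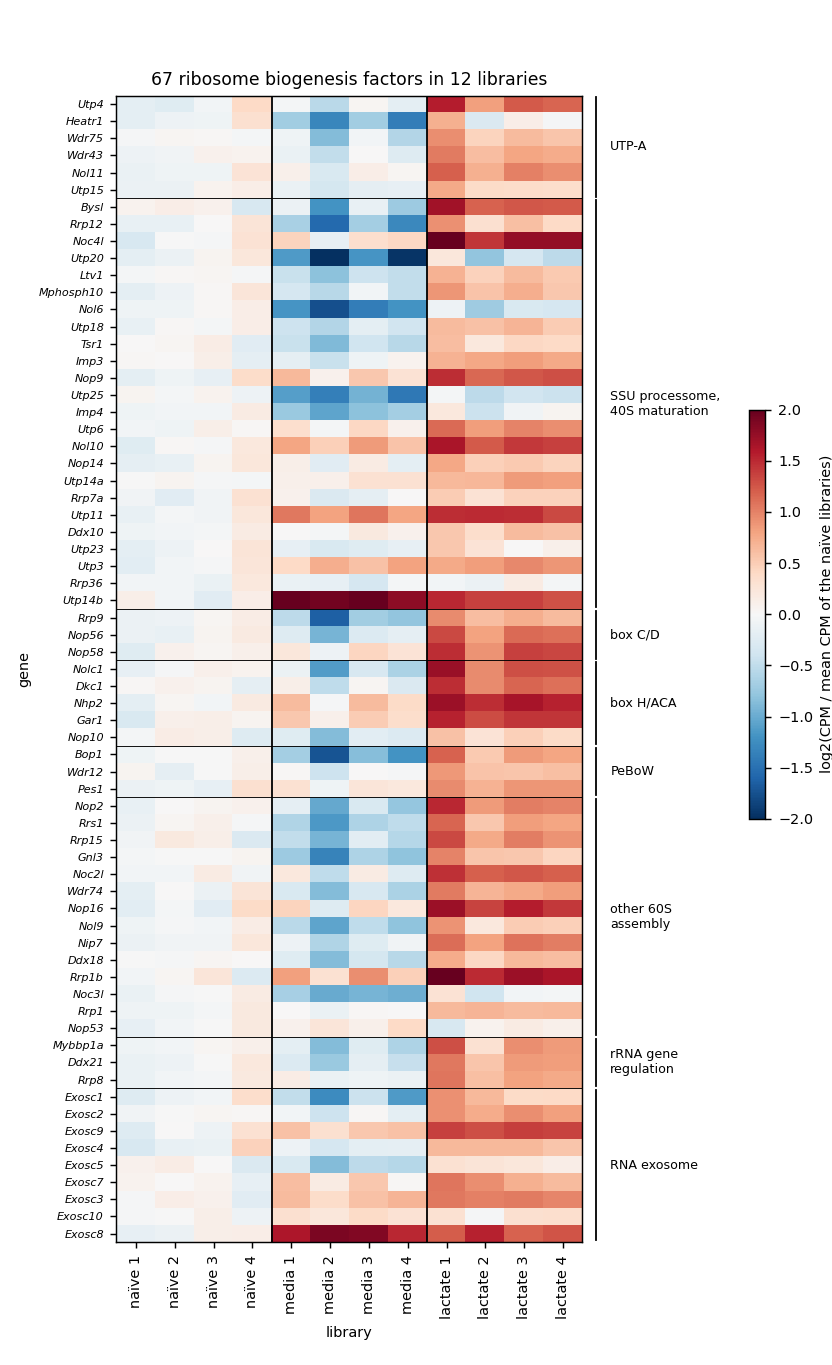
Level of the 67 members (rows, by role) in the 12 libraries (columns), as log2 of the CPM over the mean CPM of the naïve libraries, with red for higher and blue for lower and colours saturated beyond the ends of the scale. Lactate columns are red for most rows, media columns are blue or near white for most rows with media 2 the palest or bluest for 58 of 67, and the rows of Utp14b and Exosc8 are reddest in media.

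Within the pairs read from the donor tags, the direction held for nearly every member. Correlations between libraries did not decide between donor tag and title number as the pairing. In the 3 donors that gave both libraries, 63 of the 67 members were higher with lactate in all 3 pairs, 1 was higher in 1 pair and 3 were higher in none. The median log2 difference was 1.04, 0.63 and 0.99 in the 3 pairs. In each pair taken alone, 63, 63 and 64 of the 67 members were higher with lactate, against 48.5%, 49.3% and 49.0% of all tested genes. The share of all genes that were higher in all 3 pairs was not computed. With the donor as a block in the model of 12 libraries, 43 of the 59 members remained called higher, and the 16 that were lost had adjusted p from 0.0105 to 0.0597 and log2 fold changes from 0.39 to 1.06. The lost members were Ddx10, Exosc3, Exosc4, Exosc5, Exosc9, Heatr1, Imp4, Nol10, Nop10, Nop14, Nop9, Pes1, Rrp7a, Utp11, Utp15 and Utp20. That model called 992 genes in all, with both directions together, and its share of all genes called higher is not given here. The block was also fitted to the 8 activated libraries alone, an alternative added after the data had been seen. It called 59 members higher and 1 lower, and 3654 genes in all, again with both directions together. The median log2 difference between lactate and media was 1.00 within the low library series and 1.02 within the high series, which holds 1 media library. For media against naïve cells it was -0.17 and -0.29 in these series.

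Most other biogenesis factors were higher with lactate as well, on a list that was also drawn up with earlier results of these data known. Of 86 such biogenesis factors, a list that holds helicases such as Ddx27, kinases such as Riok1 and the export adaptor Nmd3, 64 were higher with lactate than in media (74.4%, against 13.9% of all genes) and 0 were lower (against 11.1%), and the median log2 fold change was 0.75. DESeq2 also called 0 of them lower, as did edgeR at an unadjusted p under 0.05 (0 genes). For media against naïve cells 15 were higher (17.4%, against 28.5% of all genes) and 22 lower (25.6%, against 29.0%), with a median of -0.05. Their share of the counts was 0.574% ± 0.0531 (SD, n = 4) in naïve cells, 0.522% ± 0.0416 in media and 0.780% ± 0.0571 with lactate. A further list held 89 genes whose symbols follow the pattern of ribosomal proteins, which includes a few genes that are not structural parts of the ribosome. Of these, 11 were higher with lactate than in media (12.4%, against 13.9% of all genes) and 78 were not called. Their fitted log2 fold change was above 0 for 87 genes and below 0 for 2, with a median of 0.23, against -0.0016 for all genes. The count of lower genes was 0 in edgeR's quasi-likelihood test, 0 at an unadjusted p under 0.05 and 0 by DESeq2. Against naïve cells, 42 of the 89 genes were higher with lactate (47.2%, against 33.0% of all genes) and 3 were lower (3.37%, against 32.0%). The 89 genes held 5.72% ± 0.199 of the counts in naïve cells, 6.14% ± 0.482 in media and 6.82% ± 0.627 with lactate. The ranges of media and lactate libraries overlapped.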

How the data were processed

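RNA-seq libraries of mouse CD8+ T cells were analysed from the deposited table of raw counts, which lists 13780 genes with their lengths. Per the labels and the methods of the study, the authors converted base calls with bcl2fastq (version 2.20.0.422), aligned reads of 71 bases from poly(A)-selected stranded libraries to GRCm38 with STAR (version 2.7.5b), discarded PCR duplicates and, with featureCounts, counted reads that mapped uniquely to exons of Ensembl genes. Whether reads were counted by strand is not given in the sources used here, so counts of genes whose exons overlap another gene are uncertain. Of the 67 members, 9 share over 10% of their exon bases with a gene on the opposite strand. Positions were taken from GENCODE release M21, where all 67 members were found.

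Groups, title numbers, donor tags and library numbers come from the sample labels. Donor tags were read within each series of library numbers. Deviations from the group means were correlated across 13767 genes for pairs of a media and a lactate library. The 3 pairs of the same donor gave 0.374, 0.211 and 0.553. Libraries that share a title number gave 0.374, 0.297, 0.0038 and 0.553, and the first and last of these are also donor pairs. These values do not decide between donor and title number, and the donor tags were taken as the pairing. Media 4 and lactate 3, which share neither, gave 0.371. Naïve libraries have no partner. The tag WT2 recurs in media 2 and media 4, and the tag WT1 in lactate 1 and lactate 3, once in each series. These libraries were taken as different animals, because the study states independent donors for each condition. The labels alone do not settle this. For naïve libraries, which carry no donor tag, separate animals are as the study states. Each p-value sets a difference between groups against the spread between libraries.

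The filter asked for 1 CPM or more in at least 3 libraries and left 13767 genes. In R 4.3.3, counts were scaled by TMM and a quasi-likelihood model with a term for each of the 3 groups was fitted to all 12 libraries in edgeR 4.0.16. Two-sided p-values were adjusted by the Benjamini-Hochberg method across these genes, and the threshold of 0.01 is, like the filter, that of the study. The biological coefficient of variation was 23.5%. Standard errors were obtained from the log2 fold change and the F statistic. TPM used the lengths in the table. The model was tested on simulated data before use. As alternatives, the comparisons were rerun with DESeq2 1.42.0, limma voom (limma 3.58.1) and edgeR's likelihood ratio test, under other scalings and filters, on the compared groups alone, with the title number, the donor or the library series in the model, at a threshold of 0.05 and with each library left out in turn. The donor block on the 8 activated libraries alone was chosen after seeing the data. Promoters were searched for the motifs CACGTG and NRF1 on both strands, and for a further motif found in 2 of the 57 matched members.

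The members, the role lists, the list of other biogenesis factors and the tests were chosen with earlier results of these data known. Members named with values were the subunits of the complexes that define the set, the 2 called members with the largest change between lactate and media in each role, the 5 largest called increases and the 5 largest called decreases between media and naïve cells, and members called against the prevailing direction. Other members, and Acsl3, were named after their values were seen.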

Additional observations from a re-analysis of the deposited data

Results flagged for a closer look

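Among the 33 members named by rule, 8 values stood apart from the other 3 libraries of their group by Dixon's criterion, out of 99 groups of 4 examined. Chance flags about 1 group in 20. Over all 67 members the count was 18 of 201 groups. In media, library 2 was below its group for Nop10 (24.9 CPM, others 37.6 to 39.5), Nop56 (76.4 CPM, others 120 to 128) and Wdr12 (33.7 CPM, others 44.0 to 45.7). With lactate, library 1 was above its group for Bysl (89.0 CPM, others 62.9 to 65.7) and Wdr12 (81.7 CPM, others 65.6 to 68.2), and library 4 was below it for Utp11 (87.7 CPM, others 98.6 to 99.4). In naïve cells, library 4 was below its group for Bysl (22.4 CPM, others 29.1 to 30.5) and above it for Pes1 (112 CPM, others 80.3 to 84.5).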

How the results depend on the processing

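The count of members higher with lactate than in media (59) ran from 43 to 61 over 26 alternatives, and their median log2 fold change (1.01) ran from 0.88 to 1.06. The low end of both came from the donor block, which also left 0 members lower. The count of lower members was 2 with edgeR's likelihood ratio test, DESeq2, DESeq2's size factors or a threshold of 0.05, and 1 to 2 with single libraries left out. For media against naïve cells, 14 members were higher at a threshold of 0.05, and 6 to 10 with single libraries left out, beside 8. For lactate against naïve cells, 2 members were lower with DESeq2 and 2 at a threshold of 0.05, and 0 to 1 with single libraries left out, of which the 1 (Utp25) came without lactate 1. The median log2 fold change of that comparison was 0.73 with DESeq2, 0.73 with DESeq2's size factors and 0.71 to 0.87 with single libraries left out. Over 3 comparisons, 14 values of members changed sign under some alternative, and 0 of the 14 were called (lowest adjusted p = 0.482 by edgeR's quasi-likelihood test). Among members named by rule, these were Wdr12 in media against naïve cells (0.0047, adjusted p = 0.972, without media 2, and from -0.23 to 0.0047 with each library left out) and Heatr1 in lactate against naïve cells (-0.048, adjusted p = 0.839, without lactate 1, and from -0.048 to 0.31 with each library left out). The causes were not tested.

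The donor pairs 3 of 4 libraries in each activated group, and the title number as a block left the calls of lactate against media at 60 members higher and 1 lower. The design holds 1 media library in the high series, and the 4 libraries a group limit the smallest exact permutation p to 0.0286. Genes that overlap others and the pair of Utp14 copies cannot be resolved from counts per gene.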
